A study of Mus musculus with 18 samples.

Results

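The genes described here are 10 genes of the chondrogenic programme, out of 55335 gene identifiers counted: the transcription factors Sox5, Sox6 and Sox9, and the cartilage matrix genes Acan, Comp, Hapln1, Matn2, Matn4, Chad and Cnmd (once called Lect1). They were chosen by name, from what is known of cartilage, but with earlier results of these data known. Each matched a gene identifier of the counts together with its version. Poly(A) RNA was sequenced from O9-1 cells, a wildtype line of neural crest cells that was derived from the heads of early mouse embryos, kept in osteoblast differentiation medium. Control cells received scrambled siRNA and either vehicle (Ctrl+vehicle) or the growth factor FGF2 (Ctrl+FGF2), and a further group received siRNA pools against Yap and Taz together with FGF2 (Y/T dKD+FGF2). Each of these 3 groups was collected at d2.5 and at d5 of differentiation, with 3 libraries per group and day, 18 in all. No group combined the knockdown with vehicle, so the knockdown was read in the presence of FGF2 alone. The labels give each day as its own batch, so day and batch cannot be told apart, and nothing in them says whether the libraries of a group came from separate cultures. The p-values therefore measure the spread between these libraries, which may be technical.

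Cartilage forms where mesenchymal cells, in the head often of neural crest origin, condense and switch on Sox9, a transcription factor that binds DNA through an HMG box. Sox9 acts on cartilage genes together with Sox5 and Sox6, which are close relatives of each other and strengthen its binding to enhancers. Their known targets include the fibrillar collagen gene Col2a1 and Acan, which encodes aggrecan, the large proteoglycan that holds water in cartilage. Hapln1 encodes the link protein that fastens aggrecan to hyaluronan, Matn2 and Matn4 encode matrilins, which are adaptors between matrix fibrils and proteoglycans, and Comp encodes a matrix protein of the thrombospondin family that binds collagens. Chad encodes chondroadherin, a leucine-rich repeat protein that binds cells to collagen, and Cnmd encodes chondromodulin, a membrane protein of avascular cartilage that inhibits vessel growth. FGF2 signals through receptor tyrosine kinases to ERK, and Yap and Taz are coactivators that reach DNA mainly through TEAD factors.

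The 10 genes lie on 8 chromosomes. In GENCODE M21 on GRCm38, Sox9 is at chr11:112782224-112787760 on the plus strand, Sox5 at chr6:143828425-144781977 on the minus strand and Sox6 at chr7:115470872-116038796 on the minus strand. Acan is at chr7:79053483-79115099, Comp at chr8:70373558-70382066, Hapln1 at chr13:89539796-89611652, Matn2 at chr15:34306677-34436273 and Chad at chr11:94565047-94569127, all on the plus strand. Matn4 is at chr2:164389393-164405160 and Cnmd at chr14:79637690-79662170, both on the minus strand. Their spans run from 4.08 kb (Chad) to 954 kb (Sox5). Exons of Sox5, Matn2 and Matn4 overlap exons of Sox5os1, 9430069I07Rik and Rbpjl on the opposite strand by 1330, 70 and 149 bases, and the counts used here keep the strands apart.

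Promoter sequence was read from RefSeq on GRCm38.p6, in windows of 300 bases that run from 250 before to 50 after a start site. Of the 10 genes, 7 had windows, 13 in all. The letters GGAATG, the core bound by TEAD factors, ACAATG and ACAAAG, both bound by SOX factors, and TGANTCA, bound by AP-1, were searched on both strands, and no match overlapped another. GGAATG stood in windows of 4 genes, Acan, Matn4, Sox5 and Sox6 (5 of the 13 windows, against 14.7% of all 32851 RefSeq windows). ACAATG stood in 3 of the 13 windows, in Sox5 and Sox6 (12.6% of all windows), and ACAAAG in 5, all of Sox6 (18.7%). TGANTCA stood in 0 of the 13 (7.81% of all windows). A match describes letters and says nothing of binding. The 250 bases before the start are shown for the 3 genes with a GGAATG match that were also lower with FGF2 at d2.5 and higher with it at d5, each 5′ to 3′ on the strand of the gene, with every match of these motifs in capitals. CATTCC is GGAATG read on the opposite strand. The Acan window, chr7:79052976-79053225 on the plus strand, lies before the GENCODE start of Acan and in an intron of the antisense gene Gm26633, and its match begins 12 bases before the RefSeq start. The window of the shorter Matn4 form, chr2:164404819-164405068 on the minus strand, lies in an intron of the longer form and opposite an exon of a Rbpjl transcript, with its match 29 bases before the start. The Sox5 window, chr6:143947107-143947356 on the minus strand, belongs to a start inside an intron of the long Sox5 forms, with GGAATG matches 102 and 9 bases before it and ACAATG 154 bases before it.
Acan: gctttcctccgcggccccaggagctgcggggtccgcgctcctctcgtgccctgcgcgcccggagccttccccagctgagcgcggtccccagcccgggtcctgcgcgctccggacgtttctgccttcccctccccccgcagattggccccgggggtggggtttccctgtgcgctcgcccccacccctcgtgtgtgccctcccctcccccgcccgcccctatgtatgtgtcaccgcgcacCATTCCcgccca
Matn4: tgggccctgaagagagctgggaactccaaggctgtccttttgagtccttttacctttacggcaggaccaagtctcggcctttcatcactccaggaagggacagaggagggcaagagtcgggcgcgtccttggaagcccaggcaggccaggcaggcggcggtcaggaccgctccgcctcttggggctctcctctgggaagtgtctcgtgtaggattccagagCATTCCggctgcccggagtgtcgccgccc
Sox5: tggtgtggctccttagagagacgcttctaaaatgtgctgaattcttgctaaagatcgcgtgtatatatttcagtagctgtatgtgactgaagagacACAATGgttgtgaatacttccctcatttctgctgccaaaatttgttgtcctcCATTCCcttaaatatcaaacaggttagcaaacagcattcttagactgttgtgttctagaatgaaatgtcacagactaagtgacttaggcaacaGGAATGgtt

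Reads counted on genes were between 10377151 and 14698525 per library. Levels are given as CPM, read counts scaled to library size and composition. In the presence of FGF2, the siRNA lowered its targets without removing them. At d2.5 the level of Yap1 was 129 ± 2.79 CPM (SD, n = 3) with FGF2 and control siRNA and 66.7 ± 2.45 with the knockdown, and at d5 it was 152 ± 5.95 and 70.4 ± 3.399. Wwtr1, which encodes Taz, was at 221 ± 2.96 and 135 ± 5.96 CPM at d2.5 and at 215 ± 2.87 and 124 ± 3.23 at d5. The Ctrl+vehicle levels of Yap1 and Wwtr1 were 149 ± 3.26 and 140 ± 1.86 CPM at d2.5 and 146 ± 8.34 and 231 ± 6.69 at d5. The knockdown level was thus below vehicle for both at d5, but at d2.5 for Yap1 only. Wwtr1 at d2.5 had a log2 fold change of -0.06 against vehicle (adjusted p = 0.122 in edgeR's quasi-likelihood test). The neural crest markers Sox10 and Foxd3 had no count in any library, and the osteoblast markers Runx2, Sp7, Alpl, Ibsp, Bglap, Spp1, Col1a1, Dmp1 and Phex were detected in each of the 6 groups.

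The first comparison asked how FGF2 changed the cartilage genes. At d2.5 FGF2 lowered Sox9, Sox5, Acan, Hapln1, Matn2 and Matn4, from 1.65-fold for Sox5 to 38.7-fold for Matn4. At d5 the same treatment raised Sox9, Sox5, Acan and Matn4, lowered Hapln1 and Comp, and left Matn2 without a change that passed the test. Of the 10 genes, 6 passed the filter on low counts at d2.5, and 0 were called higher and 6 lower (adjusted p under 0.05 in edgeR's quasi-likelihood test). Over all 13677 genes tested on that day, 33.5% were called higher and 34.1% lower. At d5, 7 passed the filter, 4 were called higher and 2 lower, where 23.5% and 23.7% of 13304 genes were called. The median log2 fold change of the tested members was -1.86 at d2.5 and 0.35 at d5, against 0.0022 and 0.016 over all genes. A gene can pass the filter through the group in which it is high, as Matn4 did at d2.5, so these counts and medians describe the tested genes alone. In bulk RNA, fewer cells of a type and less RNA per cell cannot be told apart.

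**Figure D1:**
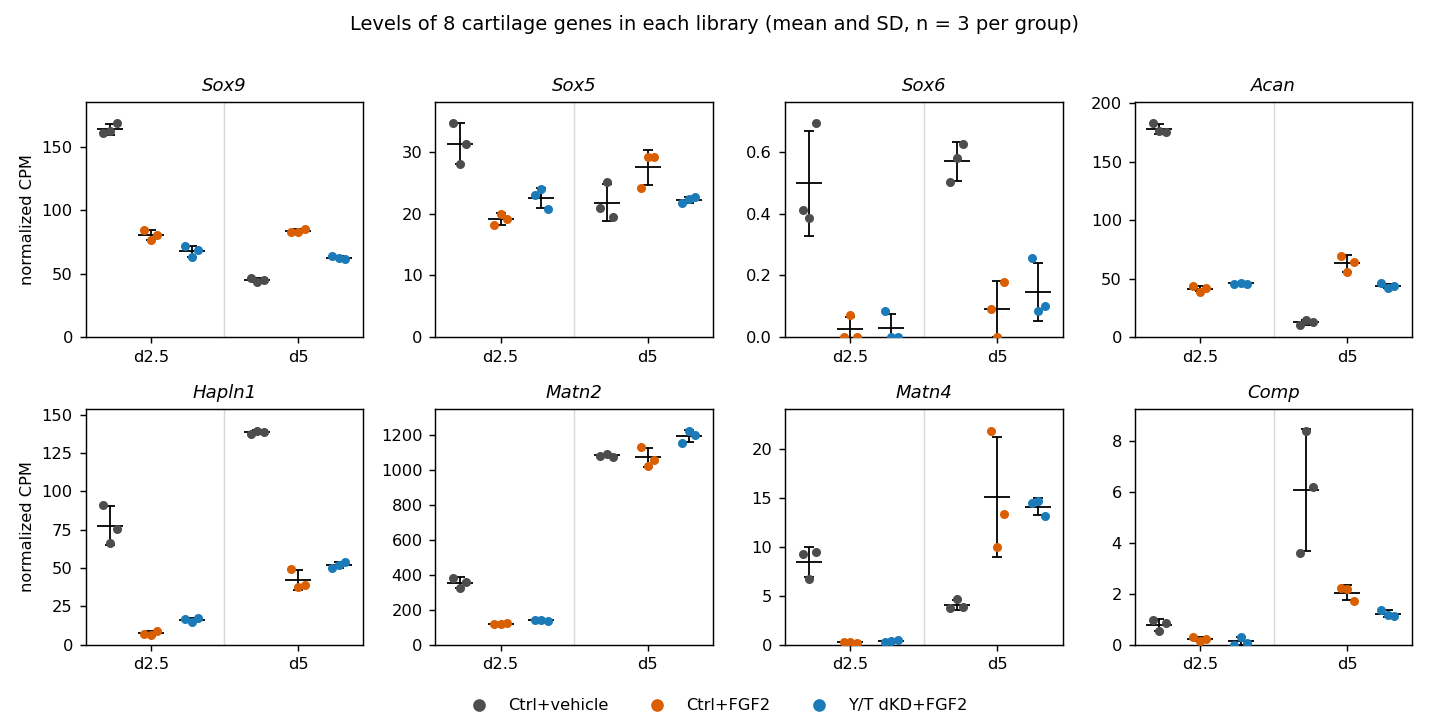
Normalized CPM of 8 of the 10 genes in each of the 18 libraries (points), with the mean (long dash) and SD (error bar, n = 3) of each group, by day on the x axis and from 0 on each y axis. The Ctrl+vehicle libraries of Sox9, Acan and Matn4 are above the Ctrl+FGF2 libraries at d2.5 and below them at d5, while those of Hapln1 are above them on both days.

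Sox9, the factor that cartilage cannot form without, was at 160, 162 and 169 CPM in the Ctrl+vehicle libraries and at 84.4, 76.9 and 80.1 CPM in the Ctrl+FGF2 libraries at d2.5. Each FGF2 library was below each vehicle library. The log2 fold change was -1.04 (standard error, SE, 0.04, adjusted p = 1.5e-19). At d5 the vehicle libraries were at 46.5, 43.1 and 44.9 CPM and the FGF2 libraries at 83.0, 82.7 and 85.3. Here each FGF2 library was above each vehicle library (log2 fold change 0.91, SE 0.05, adjusted p = 1.3e-10). The Ctrl+FGF2 libraries of both days overlapped, at 80.5 ± 3.77 and 83.7 ± 1.43 CPM (SD, n = 3), and the Ctrl+vehicle level was 164 ± 4.34 CPM at d2.5 and 44.9 ± 1.69 at d5.

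Sox5 followed the same signs with smaller changes. At d2.5 it was at 34.8, 28.1 and 31.3 CPM with vehicle and at 18.2, 20.0 and 19.2 CPM with FGF2, with no overlap (log2 fold change -0.72, SE 0.08, adjusted p = 1.1e-09). At d5 it was at 20.9, 25.1 and 19.5 CPM with vehicle and at 24.2, 29.2 and 29.3 CPM with FGF2. The d5 libraries overlapped, since vehicle replicate 2 was above FGF2 replicate 1, and the log2 fold change was 0.35 (SE 0.09, adjusted p = 0.0057).

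Sox6, the partner of Sox5, was counted too rarely to be tested. It had 6, 6 and 9 counts in the vehicle libraries and 0, 1 and 0 in the FGF2 libraries at d2.5. On d5 the counts were 5, 7 and 7 with vehicle and 1, 0 and 2 with FGF2. The vehicle libraries were above the FGF2 libraries on both days, also at d5, where Sox9 and Sox5 were higher with FGF2. The summed counts, scaled to normalized depth, were in a ratio of 0.0476 at d2.5 (exact 95% interval 0.00115 to 0.296) and 0.152 at d5 (0.0289 to 0.518). These intervals cover counting error only.

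Acan, the aggrecan gene, moved in opposite directions on the 2 days. It was at 183, 177 and 175 CPM with vehicle and at 43.3, 38.7 and 41.9 with FGF2 at d2.5. The FGF2 libraries were 4.35-fold lower (log2 fold change -2.12, SE 0.04, adjusted p = 2.8e-27). By d5 the vehicle libraries held 9.94, 14.7 and 12.7 CPM and the FGF2 libraries 69.6, 55.5 and 64.2. Every FGF2 library was then above every vehicle library, 5.04-fold by the fit (log2 fold change 2.33, SE 0.10, adjusted p = 1.6e-11).

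Hapln1, which encodes the link protein of aggrecan, was lower with FGF2 on both days. At d2.5 it was at 91.1, 66.2 and 75.7 CPM with vehicle and at 6.90, 6.04 and 8.88 CPM with FGF2, a log2 fold change of -3.42 (SE 0.11, adjusted p = 1.2e-22). At d5 it was at 137, 140 and 139 CPM with vehicle and at 49.3, 37.5 and 39.1 CPM with FGF2, a log2 fold change of -1.72 (SE 0.07, adjusted p = 3.5e-12). The libraries of the 2 groups did not overlap on either day. Acan and Hapln1, whose proteins share a complex with hyaluronan, thus fell together at d2.5 and went opposite ways at d5.

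Matn2 was the member with the most reads. Its vehicle libraries were at 383, 322 and 360 CPM and its FGF2 libraries at 118, 115 and 122 CPM at d2.5, without overlap (log2 fold change -1.60, SE 0.04, adjusted p = 5.8e-24). At d5 vehicle libraries of 1082, 1092 and 1075 CPM lay within the range of the FGF2 libraries, 1130, 1024 and 1060 CPM. The log2 fold change was -0.0031 (SE 0.04, adjusted p = 0.955), with an SE near that of d2.5. Matn4 had far fewer reads and wider changes. It was at 9.24, 6.64 and 9.42 CPM with vehicle at d2.5 and at 0.211, 0.218 and 0.200 CPM with FGF2, which is 3 counts in each of those FGF2 libraries. From 359 counts over the vehicle group and 9 over the FGF2 group, the vehicle level was 39.9 times the FGF2 level by counting alone (exact 95% interval 20.8 to 87.9), and the fitted log2 fold change was -5.27 (SE 0.28, adjusted p = 6.5e-17). At d5 Matn4 was at 3.72, 4.66 and 3.86 CPM with vehicle and at 21.9, 10.01 and 13.4 CPM with FGF2, again without overlap but in the opposite direction (log2 fold change 1.88, SE 0.24, adjusted p = 4.2e-06). FGF2 replicate 1 was the highest of these libraries, and without it the log2 fold change was 1.52.

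The remaining matrix genes were scarce. Comp had 14, 8 and 11 counts with vehicle and 4, 2 and 3 with FGF2 at d2.5, where it did not pass the filter, and the ratio of the summed counts was 0.273 (exact 95% interval 0.115 to 0.583). At d5 it was at 3.62, 8.41 and 6.19 CPM with vehicle and at 2.20, 2.20 and 1.70 CPM with FGF2, without overlap (log2 fold change -1.58, SE 0.26, adjusted p = 6.7e-05). Comp was thus lower with FGF2 at d5, like Hapln1 and unlike Acan. Cnmd had no count at d2.5, and at d5 it had 1, 2 and 2 counts with vehicle, 2, 5 and 0 with FGF2 and none with the knockdown. Its FGF2 and vehicle libraries overlapped, with a count ratio of 1.35 (exact 95% interval 0.369 to 5.40). The knockdown libraries were below each vehicle library, but their ratio to vehicle, 0 against 5 counts, had an upper limit of 1.07. Their ratio to Ctrl+FGF2, 0 against 7 counts, had an upper limit of 0.708, although FGF2 replicate 3 was at 0 too and 1 FGF2 library held 5 of the 7 counts. Chad had no count in any of the 18 libraries, where 3 counts over all of them would be a level of 0.0134 CPM.

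**Figure D2:**
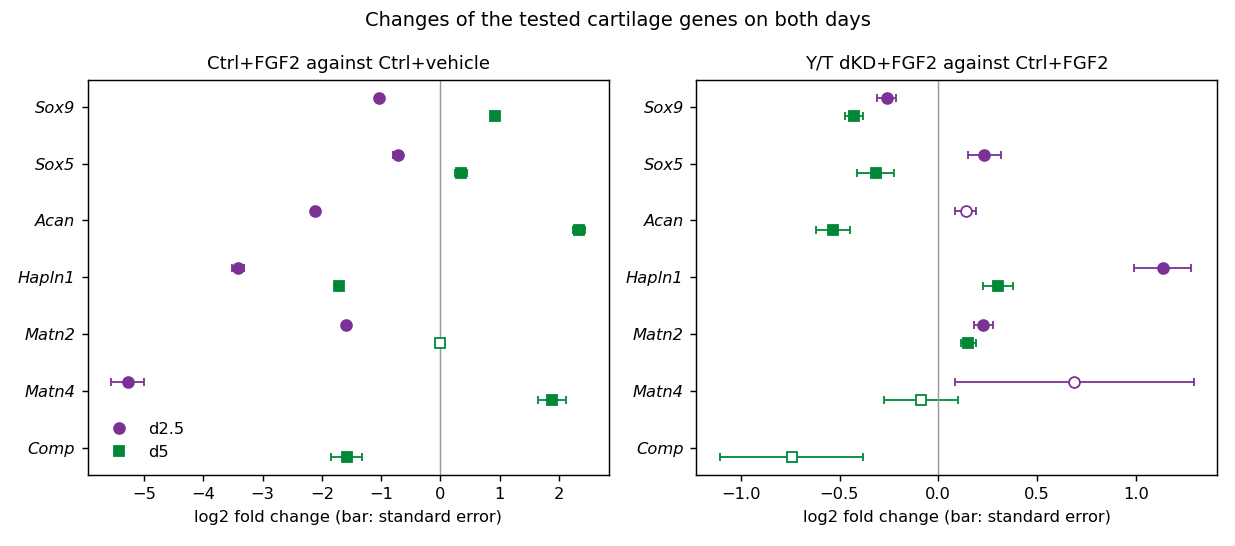
Log2 fold changes of the 7 tested members (x axis) with standard errors (bars) at d2.5 (circles) and d5 (squares), filled where the adjusted p was under 0.05, for FGF2 (left) and for the knockdown in the presence of FGF2 (right). Sox9, Sox5, Acan and Matn4 lie left of 0 at d2.5 and right of it at d5 in the FGF2 panel, and the knockdown panel spans a narrower range, with Hapln1 at d2.5 farthest from 0 at 1.14.

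The FGF2 effects were then compared between days in a fit of all 18 libraries. The effect was higher at d5 than at d2.5 for 6 of the 7 genes tested, Sox5, Sox9, Acan, Hapln1, Matn2 and Matn4, and lower for 0. Among all 14198 genes of that fit, 31.8% had a higher effect at d5 and 29.1% a lower one. The difference was 1.93 on the log2 scale for Sox9 (SE 0.07, adjusted p = 4.7e-20), 4.43 for Acan (0.11, 8.9e-24) and 7.11 for Matn4 (0.45, 3.5e-14). It was 1.05 for Sox5, 1.68 for Hapln1 and 1.57 for Matn2, with adjusted p-values of 3.5e-08, 2.1e-10 and 1.3e-18. For Hapln1 the difference is between a larger and a smaller fall, and for Matn2 between a fall and no called change. Comp, at 33 and 9 counts in the d2.5 groups, had a difference of 0.23 (SE 0.60, adjusted p = 0.762), and without d5 Ctrl+vehicle replicate 1, the lowest of its group, the value was -0.015.

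The second comparison asked what the knockdown of Yap and Taz changed while FGF2 was present. Over the tested members and both days, its log2 fold changes ran from -0.74 to 1.14, against -5.27 to 2.33 for FGF2. Sox9 fell and Hapln1 and Matn2 rose on both days, Sox5 was called higher at d2.5 and lower at d5, and Acan was lower at d5. At d2.5, 3 of the 6 tested members were called higher and 1 lower, where 10.8% and 13.6% of all genes were called. At d5, 2 of 7 were called higher and 3 lower, where 15.6% and 16.1% of all genes were called. The median log2 fold change of the tested members was 0.23 and -0.32, against 0.0013 and 0.0034 over all genes.

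Sox9 in Y/T dKD+FGF2 cells was at 71.6, 62.9 and 68.6 CPM at d2.5, below the lowest Ctrl+FGF2 library (76.9 CPM). Its log2 fold change was -0.26 (SE 0.05, adjusted p = 0.00017). On d5 the knockdown libraries were at 63.6, 62.6 and 61.3 CPM, again below each Ctrl+FGF2 library (log2 fold change -0.43, SE 0.05, adjusted p = 1.5e-06). The knockdown thus moved Sox9 away from the vehicle level at d2.5 and toward it at d5. The difference of the knockdown effect between days was -0.17 for Sox9 (SE 0.07, adjusted p = 0.0831), and it passed the threshold when d2.5 Ctrl+FGF2 replicate 1 was left out (-0.22, adjusted p = 0.0408) or d2.5 Y/T dKD+FGF2 replicate 2 (-0.23, adjusted p = 0.0180). It also passed with upper-quartile factors (adjusted p = 0.0439) and with at least 10 counts in every library (0.0471).

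Sox5 was at 23.0, 24.0 and 20.8 CPM with the knockdown at d2.5, above each Ctrl+FGF2 library by a small margin (log2 fold change 0.23, SE 0.08, adjusted p = 0.0411). This call did not hold in 5 of the 9 fits that left out 1 library: the adjusted p was 0.0541 without Ctrl+vehicle replicate 3, 0.150 and 0.0931 without Ctrl+FGF2 replicates 1 and 3, and 0.109 and 0.172 without Y/T dKD+FGF2 replicates 1 and 2. DESeq2 gave an adjusted p of 0.0775, and a fit of all 18 libraries 0.0668. At d5 Sox5 was at 21.8, 22.4 and 22.7 CPM with the knockdown, below each Ctrl+FGF2 library (log2 fold change -0.32, SE 0.09, adjusted p = 0.0153), and its level was within the range of the vehicle libraries, 22.3 ± 0.481 against 21.8 ± 2.95 CPM. The d5 call was lost without Ctrl+FGF2 replicate 2 (adjusted p = 0.0582), Ctrl+FGF2 replicate 3 (0.0774) or Y/T dKD+FGF2 replicate 1 (0.0580). Sox6 had 1, 0 and 0 counts with the knockdown at d2.5 and 3, 1 and 1 at d5, and the ratio to Ctrl+FGF2 at d5 was 1.70 with an exact 95% interval of 0.331 to 10.95.

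Acan was at 45.2, 46.6 and 45.6 CPM in the knockdown libraries at d2.5, each above the highest Ctrl+FGF2 library (43.3 CPM), and the log2 fold change of 0.14 (SE 0.05, adjusted p = 0.0539) did not pass the threshold. It did pass without Ctrl+vehicle replicate 1 (adjusted p = 0.0438) and without Ctrl+FGF2 replicate 1 (0.0393), and with RLE factors (0.0389), upper-quartile factors (0.0410), at least 10 counts in every library (0.0422) or those 2 groups alone (0.0494). At d5 the knockdown libraries held 45.8, 41.6 and 43.6 CPM of Acan, between the vehicle and the FGF2 libraries, with a log2 fold change of -0.53 (SE 0.09, adjusted p = 0.00010). Hapln1 rose from the FGF2 level to 16.6, 14.8 and 17.1 CPM at d2.5, 2.20-fold (log2 fold change 1.14, SE 0.14, adjusted p = 7.9e-07). On d5 it was at 50.1, 51.6 and 53.9 CPM with the knockdown (log2 fold change 0.30, SE 0.08, adjusted p = 0.0051). Its libraries were above all Ctrl+FGF2 and below all Ctrl+vehicle libraries on both days.

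Matn2 was at 139, 142 and 137 CPM with the knockdown at d2.5 and at 1157, 1226 and 1202 CPM at d5, above each Ctrl+FGF2 library of its day. The log2 fold changes were 0.23 (SE 0.05, adjusted p = 0.00069) and 0.15 (0.04, 0.0046), small but larger than the spread of the libraries. Matn4 had 3, 4 and 6 counts with the knockdown at d2.5, and its log2 fold change of 0.69 (SE 0.61, adjusted p = 0.448) was not distinguishable from 0. At d5 it was at 14.4, 14.7 and 13.1 CPM (log2 fold change -0.09, SE 0.19, adjusted p = 0.772), and leaving out Ctrl+FGF2 replicate 1, its highest library, turned the sign to 0.27, still not called. Comp had 0, 4 and 1 counts with the knockdown at d2.5. It was at 1.36, 1.16 and 1.12 CPM at d5, below each Ctrl+FGF2 library, with a log2 fold change of -0.74 (SE 0.36, adjusted p = 0.133) that passed the threshold without Ctrl+vehicle replicate 1 (adjusted p = 0.0439), without the filter on low counts (0.0467) or with those 2 groups alone in the fit (0.0322).

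Between days, the knockdown effect was lower at d5 for 3 of the 7 tested members, Sox5, Acan and Hapln1, and higher for 0, where 9.37% of all genes had a lower and 11.6% a higher effect at d5. The differences were -0.55 for Sox5 (SE 0.13, adjusted p = 0.0029), -0.68 for Acan (0.10, 1.5e-05) and -0.84 for Hapln1 (0.19, 0.0014). Acan thus had a positive, uncalled effect at d2.5 and a negative one at d5, while Hapln1 rose on both days and by less at d5.

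A further comparison set Y/T dKD+FGF2 against Ctrl+vehicle. It shares libraries with both comparisons above and is given for its own values. At d2.5, 0 of the 6 tested members were called higher and 6 lower (34.1% and 35.7% of all genes), with log2 fold changes from -0.49 (Sox5) to -4.58 (Matn4) and a median of -1.68. Matn4, at 13 counts over the Y/T dKD+FGF2 libraries, passed the filter through the vehicle libraries and had to differ. The count and the median are thus a description only. For each of the 6 genes, every Y/T dKD+FGF2 library was below every vehicle library at d2.5. At d5, 4 of the 7 were called higher, Sox9, Acan, Matn2 and Matn4, and 2 lower, Comp and Hapln1 (20.7% and 21.1% of all genes). Their log2 fold changes were 0.49 for Sox9, 1.80 for Acan, 0.15 for Matn2, 1.79 for Matn4, -2.32 for Comp and -1.41 for Hapln1. Sox5 was at 0.03 (SE 0.10, adjusted p = 0.831), and at -0.049 without Ctrl+vehicle replicate 3.

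The order of the 6 groups differed between the genes. Sox9 was highest in d2.5 Ctrl+vehicle (164 CPM), followed by d5 Ctrl+FGF2 (83.7), d2.5 Ctrl+FGF2 (80.5), d2.5 Y/T dKD+FGF2 (67.7), d5 Y/T dKD+FGF2 (62.5) and d5 Ctrl+vehicle (44.9). The libraries of d5 and d2.5 Ctrl+FGF2 overlapped, as did those of the knockdown on both days. Acan had its highest and lowest levels in the same groups as Sox9, 178 ± 4.26 and 12.5 ± 2.41 CPM, and overlapped between neighbours among the d2.5 Ctrl+FGF2 and both knockdown groups. Hapln1 was highest in d5 Ctrl+vehicle (139 ± 1.28 CPM) and lowest in d2.5 Ctrl+FGF2 (7.27 ± 1.46), and no neighbouring groups in its order overlapped. Matn2 stood between 1024 and 1226 CPM in all d5 libraries and between 115 and 383 CPM in all d2.5 libraries. Matn4 was highest in d5 Ctrl+FGF2 (15.1 ± 6.11 CPM), which overlapped d5 Y/T dKD+FGF2 (14.1 ± 0.842), and lowest in d2.5 Ctrl+FGF2 (0.210 ± 0.00896). Comp was highest in d5 Ctrl+vehicle (6.07 ± 2.40 CPM). Levels of the same treatment on different days belong to different batches and were not tested.

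Per kilobase of exon, the genes also stood in different ranks. In d2.5 Ctrl+vehicle, Matn2 was at 56.7 ± 4.92 CPM per kb, Sox9 at 39.6 ± 1.05, Acan at 23.9 ± 0.571 and Hapln1 at 13.2 ± 2.13. On the same scale Sox5 was at 2.18 ± 0.231 and Matn4 at 1.63 ± 0.300, with Comp at 0.262 ± 0.0787 and Sox6 at 0.0336 ± 0.0115. In d5 Ctrl+vehicle, Matn2 was at 173 ± 1.37, Hapln1 at 23.5 ± 0.217, Sox9 at 10.8 ± 0.409, Comp at 2.05 ± 0.808 and Acan at 1.67 ± 0.322 CPM per kb. Sox9 was thus above Acan per kb in both vehicle groups, and Sox5 was well above Sox6.

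By the rule of the smallest root mean square distance between 6 centred group means, the genes with the pattern most like that of Sox9 among 14198 genes were Rdh12 (distance 0.163 on the log2 scale), Asap3 (0.163) and the antisense gene Gm13205 (0.172). Rdh12 encodes a retinol dehydrogenase and Asap3 an Arf GTPase-activating protein. The likeness describes 6 means of 3 libraries each and carries no test.

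**Figure D3:**
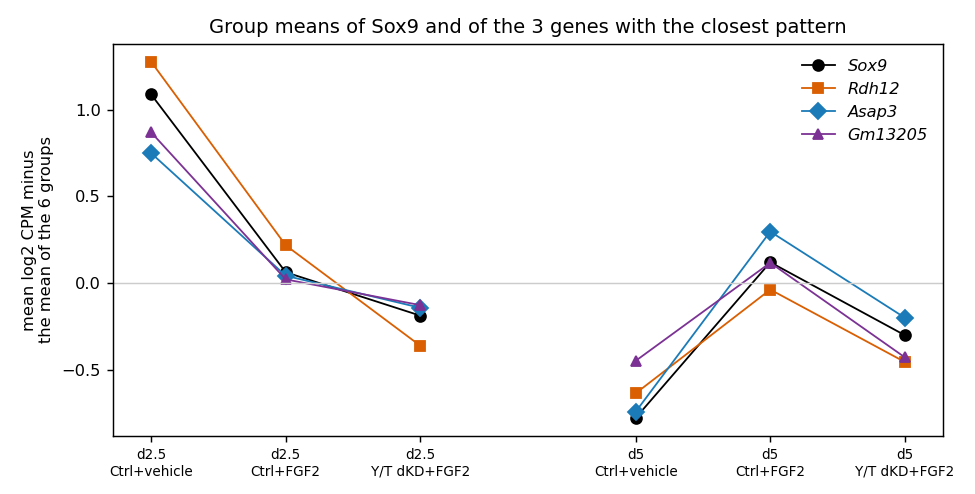
Mean log2 CPM of each of the 6 groups minus the mean of the 6 (y axis) for Sox9 and the 3 genes closest to it, in the order of groups on the x axis, with lines joining the groups of a day. All 4 genes are highest in d2.5 Ctrl+vehicle, where Sox9 is at 1.09, and lowest in d5 Ctrl+vehicle, where Sox9 is at -0.78.

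The cartilage collagens, a list of 8 genes for collagens II, IX, X, XI and XXVII, were lower with FGF2 at d2.5, as were the 6 tested members, and had mixed signs at d5. At d2.5, 0 were called higher and 8 of 8 lower, with a median log2 fold change of -5.60. Col9a1, Col9a2, Col9a3 and Col11a2 had 1, 4, 10 and 18 counts over the 3 FGF2 libraries. These 4 thus passed the filter through the vehicle libraries and had to differ, and the count and the median are a description only. The counts of this and the other lists stand against the shares of all genes called, 33.5% higher and 34.1% lower with FGF2 at d2.5, 23.5% and 23.7% at d5, and with the knockdown 10.8% and 13.6% at d2.5 and 15.6% and 16.1% at d5. Col2a1, the main fibrillar collagen of cartilage and a known target of Sox9, was at 575, 362 and 443 CPM with vehicle and at 1.27, 1.02 and 0.668 CPM with FGF2. That is a log2 fold change of -8.87 (SE 0.18, adjusted p = 1.1e-27). The d5 libraries of Col2a1 overlapped, at 164, 264 and 211 CPM with vehicle and 278, 185 and 243 CPM with FGF2 (log2 fold change 0.15, SE 0.13, adjusted p = 0.355). Over the list at d5, 2 of 7 tested collagens were called higher and 4 lower, with a median of -0.14. Col9a2, a chain of the collagen IX that coats the fibril, rose by 1.35 (SE 0.14, adjusted p = 4.9e-07), while Col9a1, another chain of the same protein, was at 1.61, 4.83 and 2.51 CPM with vehicle and 0.643, 0.325 and 0.628 CPM with FGF2 and fell by 2.51 (SE 0.42, adjusted p = 8.3e-05). With 18 counts over the d5 FGF2 libraries, Col9a1 passed the filter through the vehicle libraries on this day too. Col11a2, a chain of the minor fibrillar collagen XI, was at 24.0, 47.1 and 32.6 CPM with vehicle and at 3.49, 3.17 and 4.22 CPM with FGF2 at d5 (log2 fold change -3.25, SE 0.22, adjusted p = 2.3e-09). It had fallen by 5.55 at d2.5. The FGF2 effect was higher at d5 for 7 of the 8 collagens, where 31.8% of 14198 genes had a higher effect. Among these 7, Col9a1, Col9a2 and Col11a2 were near the floor in the d2.5 FGF2 libraries, as given above. This count is thus a description only.

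**Figure D4:**
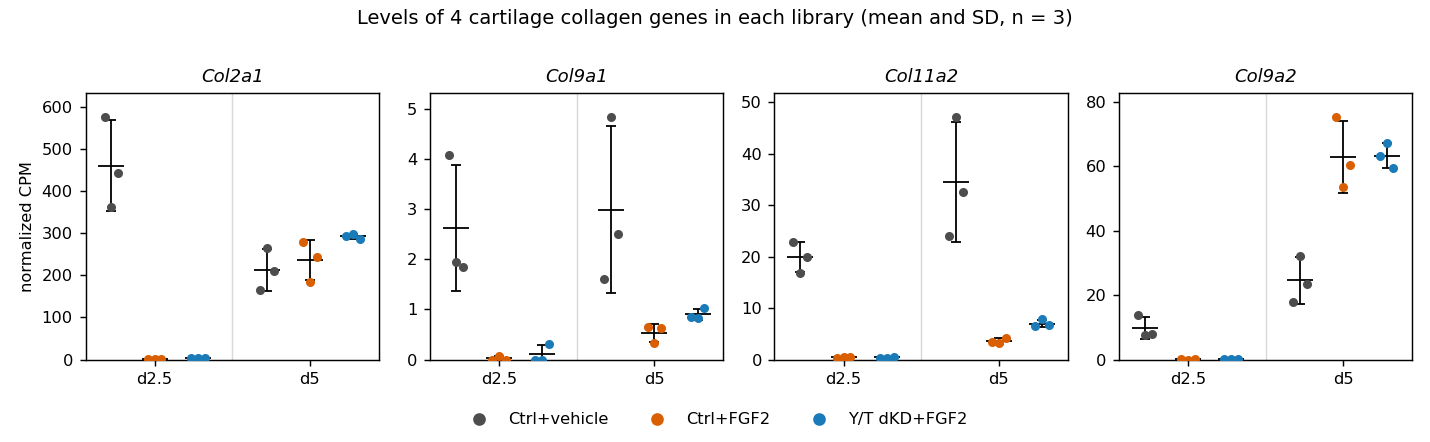
Normalized CPM of Col2a1, Col9a1, Col11a2 and Col9a2 in each library (points), with mean and SD (n = 3) per group, by day on the x axis and from 0 on each y axis. All are near 0 with FGF2 at d2.5, and at d5 the FGF2 libraries overlap vehicle for Col2a1, lie below it for Col9a1 and Col11a2 and above it for Col9a2.

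With the knockdown, 2 of the 8 collagens were called higher and 0 lower at d2.5. Col2a1 was at 3.23, 2.88 and 2.76 CPM there, above each Ctrl+FGF2 library and far below vehicle (log2 fold change 1.57, SE 0.51, adjusted p = 0.0237). At d5, 2 of 7 were called higher and 1 lower. Col11a2 rose by 0.95 (SE 0.29, adjusted p = 0.0175), Col11a1 fell by 0.26 (0.04, 4.4e-05), and Col2a1 was at 292, 298 and 287 CPM, above each Ctrl+FGF2 library, with a log2 fold change of 0.31 (0.13, adjusted p = 0.0746) that was not called. Matn1, the matrilin most used to mark cartilage, had 1 count in all 18 libraries, in a d2.5 vehicle library.

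Other regulators of chondrogenesis were listed with 19 genes. At d2.5, 15 were tested with FGF2, of which 2 were called higher (33.5% of all genes) and 10 lower (34.1%), with a median of -0.60. Sox13, among those called lower, had 45 counts with vehicle and 17 with FGF2. It passed the filter through the vehicle libraries, so the count and median describe the tested genes alone. At d5, 14 were tested, of which 9 were called higher (23.5% of all genes) and 2 lower (23.7%), with a median of 0.28. For each list, the called genes with the largest rise and fall at a mean log2 CPM of at least 1 are named. Mef2c, a transcription factor of chondrocyte hypertrophy, had the largest fall at d2.5, from 185 ± 4.03 to 66.7 ± 6.02 CPM (log2 fold change -1.48, SE 0.05, adjusted p = 5.2e-23). Arid5a, a partner of Sox9, rose at d2.5 by 1.01 (0.09, 8.9e-12). At d5 the largest rise was that of Zfp219, also a partner of Sox9, by 0.91 (0.10, 1.2e-06), and the largest fall that of Runx3, a RUNX factor of skeletal cells, by 0.43 (0.05, 2.1e-06). The knockdown called 2 of 15 higher and 1 lower at d2.5 (10.8% and 13.6% of all genes), where Mef2c rose by 0.45 and Arid5a fell by 0.22. It called 4 of 14 higher and 2 lower at d5 (15.6% and 16.1% of all genes), where Arid5a rose by 0.58 and Mef2c fell by 0.37, each opposite in sign to d2.5.

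Paralogues of the 10 genes include other proteoglycans of the aggrecan family, link proteins, matrilins and thrombospondins. Of 14 listed, 6 were tested at d2.5, with 1 called higher and 5 lower with FGF2 (median -1.07), and 7 at d5, with 1 higher and 4 lower (median -0.45). Hapln4 and Matn3, both called lower at d5, had 27 and 14 counts over the d5 FGF2 libraries. They passed the filter through the vehicle libraries, so the d5 count and median are a description only. Thbs1, a thrombospondin of the family of Comp, fell from 691 ± 23.4 to 140 ± 4.36 CPM at d2.5 (log2 fold change -2.31, SE 0.04, adjusted p = 9.2e-31) and rose from 2799 ± 202 to 4368 ± 228 CPM at d5 (0.65, 0.05, 7.5e-09). Its relative Thbs2 rose by 1.03 at d2.5. Vcan, the versican gene and a relative of Acan, was at 360 ± 21.5 CPM with vehicle and 231 ± 23.9 with FGF2 at d5 and fell by 0.63 (0.06, 1.5e-07), opposite in sign to Acan. The knockdown called 1 of 6 higher and 1 lower at d2.5 (Thbs2 by 0.54, Thbs1 by -0.32) and 0 of 7 higher and 1 lower at d5, where Thbs1 fell by 1.15 (0.05, 1.5e-11).

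Among 14 other cartilage matrix genes, 4 were tested at d2.5 and 6 at d5. With FGF2, 1 was called higher and 3 lower at d2.5 (median -6.66, with C1qtnf3 at 2 counts and Fmod at 14 over the FGF2 libraries, so that both passed the filter through the vehicle libraries), and 2 higher and 3 lower at d5 (median -0.15). Fmod, a small proteoglycan that binds collagen fibrils, fell from 151 ± 1.87 to 0.328 ± 0.150 CPM at d2.5 (log2 fold change -8.83, SE 0.11, adjusted p = 1.4e-33). Mgp, an inhibitor of matrix calcification, rose by 1.62 (0.05, 6.6e-22) at d2.5 and by 0.21 (0.08, 0.0331) at d5. C1qtnf3, a secreted protein of cartilage, fell at d5 from 86.0 ± 8.33 to 25.2 ± 2.57 CPM (log2 fold change -1.76, 0.08, 8.0e-12). The knockdown called 1 of 4 higher and 0 lower at d2.5 and 3 of 6 higher and 2 lower at d5, with Mgp up on both days, by 0.53 and 1.54, and Prelp, another small proteoglycan, down by 1.32 at d5 (0.06, 1.5e-11). At d5 Cilp2 had 18 counts with vehicle, 96 with FGF2 and 22 with the knockdown, so it passed the filter through the FGF2 libraries. It was called higher with FGF2 and lower with the knockdown, and the d5 counts are a description only.

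Proteoglycan turnover, the enzymes that cut or stabilize aggrecan and hyaluronan, was listed with 13 genes, of which 9 were tested on each day. FGF2 called 2 higher and 6 lower at d2.5 (median -1.62) and 2 higher and 4 lower at d5 (median -0.11). Mmp13, the collagenase of hypertrophic cartilage and osteoblasts, had the largest fall at d2.5, by 7.07 (SE 0.19, adjusted p = 2.7e-24), and Timp3, a metalloproteinase inhibitor, the largest rise, by 0.93 (0.06, 2.2e-15). The d2.5 FGF2 libraries held 17 counts of Mmp13 in all, against 2319 with vehicle, so the size of its fall rests on few counts. At d5 Has2, a hyaluronan synthase, fell by 1.04 (0.15, 1.6e-05) and Adamts4, an aggrecanase, rose by 0.38 (0.07, 0.00030). The knockdown called 2 higher and 0 lower at d2.5 and 5 higher and 2 lower at d5, with Mmp13 up by 1.56 and 1.59 and Adamts1, a protease that cuts proteoglycans, down by 0.49 at d5.

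The genes that make and sulfate the glycosaminoglycan chains of aggrecan, 15 listed and 14 tested on each day, were split in sign. With FGF2, 4 were called higher and 8 lower at d2.5 (median -0.32), and 3 higher and 3 lower at d5 (median 0.04). Papss2, which makes the sulfate donor, fell on both days, from 42.0 ± 5.45 to 3.82 ± 0.385 CPM at d2.5 (log2 fold change -3.47, SE 0.11, adjusted p = 2.0e-22) and from 49.0 ± 3.92 to 14.7 ± 1.06 CPM at d5 (-1.72, 0.08, 2.4e-11). Csgalnact1, which starts chondroitin chains, rose on both days, by 1.15 and 0.85. Papss2 thus had the same signs as Hapln1, and Csgalnact1 was higher with FGF2 already at d2.5, when Acan was lower. With the knockdown, 3 were called higher and 4 lower at d2.5, the largest rise that of Papss2 (0.46, adjusted p = 0.0494) and the largest fall that of Chpf, a chondroitin polymerizing factor (-0.62, adjusted p = 4.3e-08). At d5, 5 were called higher and 3 lower, led by Xylt1, which starts the linkage region, with 0.70, and Chst3, a chondroitin sulfotransferase, with -0.38.

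**Figure D5:**
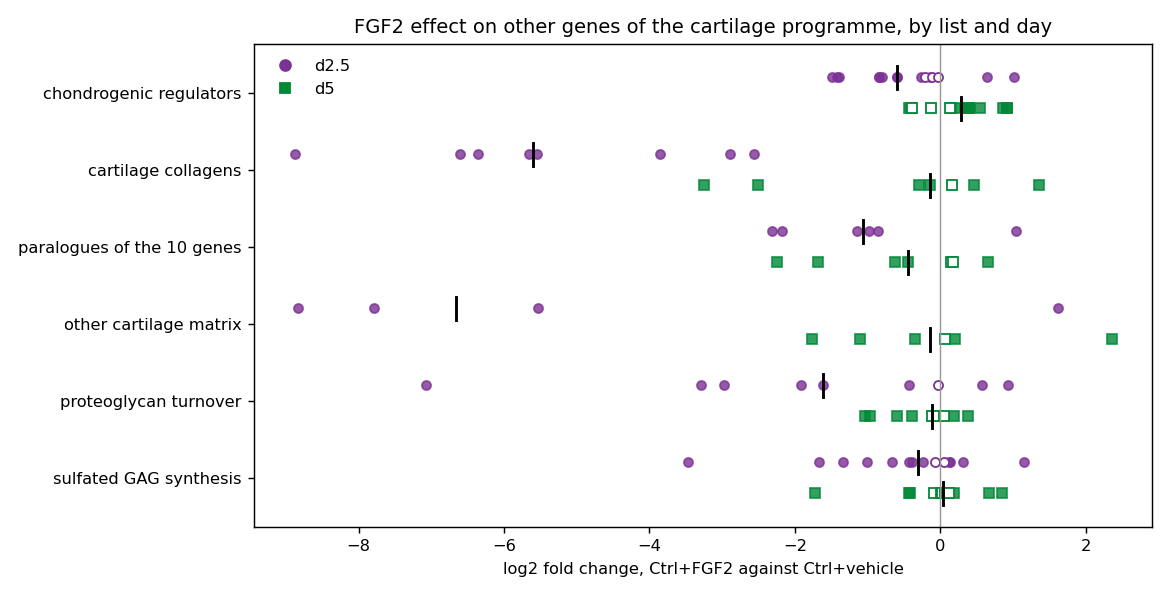
Log2 fold change of Ctrl+FGF2 against Ctrl+vehicle (x axis) for each tested gene of 6 lists (y axis), at d2.5 (circles) and d5 (squares), filled where the adjusted p was under 0.05, with a black bar at the median of the list. The medians of cartilage collagens and other cartilage matrix lie at -5.60 and -6.66 at d2.5 and at -0.14 and -0.15 at d5.

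Markers of cell types that neural crest cells can form were summed in each library. The summed level of 12 chondrocyte markers, which include Acan, Hapln1, Comp and Cnmd, was 634 to 893 CPM in d2.5 Ctrl+vehicle, 47.0 to 52.7 in Ctrl+FGF2 and 65.8 to 67.0 in Y/T dKD+FGF2, and 361 to 513, 338 to 479 and 454 to 469 CPM in the same order at d5. Col2a1 held a large part of the d5 sum. At d5, 2 of the 8 markers tested were called higher with FGF2 and 5 lower (23.5% and 23.7% of all genes), with a median log2 fold change of -1.65. Col9a1 and Matn3, among those called lower, had 18 and 14 counts over the d5 FGF2 libraries. Both passed the filter through the vehicle libraries, so this count and median are a description only. Of the 12 chondrocyte markers, Snorc was at 0 in all groups and Matn1 in all but d2.5 Ctrl+vehicle. The summed level of 4 hypertrophic chondrocyte markers was 87.4 to 112, 1.14 to 1.20 and 3.23 to 3.64 CPM at d2.5 and 918 to 1292, 540 to 582 and 1512 to 1858 CPM at d5. Nearly all of the d5 sum was Mmp13, at 1091, 555 and 1683 CPM, while Col10a1 was at 5.75, 7.84 and 9.54 CPM. Of the 3 tested with FGF2 at d5, 1 was called higher (Col10a1) and 2 lower (Mmp13 and Panx3), against 23.5% and 23.7% of all genes. The 9 osteoblast markers summed to 17156 to 17492 CPM with vehicle, 9600 to 9848 with FGF2 and 11679 to 12207 with the knockdown at d2.5, and to 32284 to 34501, 17817 to 19204 and 24488 to 26161 at d5. Most of the fall in this sum with FGF2 was Col1a1, at 12624 ± 134 and 2201 ± 58.6 CPM at d2.5 and at 31882 ± 1134 and 16629 ± 993 CPM at d5. Spp1, the osteopontin gene, was higher with FGF2 on both days. Single osteoblast markers were split, with 3 of 8 tested called higher and 5 lower at d2.5 (33.5% and 34.1% of all genes). At d5, 5 of 9 were called higher and 4 lower (23.5% and 23.7% of all genes). The 7 smooth muscle markers summed to 168 to 232, 22.8 to 23.8 and 13.7 to 15.3 CPM at d2.5 and to 2034 to 2147, 2675 to 3070 and 2114 to 2274 CPM at d5. Nearly all of this sum was Acta2, the smooth muscle actin gene, at 187 ± 31.5 and 20.98 ± 0.573 CPM with vehicle and FGF2 at d2.5 and at 2004 ± 51.6 and 2798 ± 191 at d5. Acta2 was the only 1 of 4 smooth muscle markers tested at d5 that was called higher with FGF2, and 3 were not called. The 3 tendon markers ranged from 15.9 to 18.9 CPM over all d2.5 libraries, with Tnmd at 0 throughout, and from 23.1 to 36.0 at d5. The 7 neural crest and glia markers ranged from 3.89 to 10.3 CPM at d2.5 and from 1.95 to 2.77 at d5, and the 6 adipocyte markers from 40.5 to 55.2 and from 16.8 to 25.9 CPM. The part of these other cell types in the levels of the 10 genes was not tested.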

How the data were processed

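Poly(A) RNA of 18 O9-1 libraries (kit: SMARTER mRNA-Seq) was analysed. Raw counts, 1 file per library and not normalized, were deposited by the authors in the 4-column layout of STAR's gene counts. The submitters' processing notes name FastQC, STAR, Picard, featureCounts and mm10, with no versions, and which of them counted is not given in the sources used here. The column for the reverse strand was used (96.0% to 96.6% of stranded counts), and entries naming no gene, 27.0% to 34.4% of a library, stayed out. Reads with several matches were listed apart from genes, which can lower genes with near-identical copies. Names and coordinates came from GENCODE M21 (55154 of 55335 identifiers matched).

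Each day's 9 libraries were fitted in edgeR 4.0.16 (R 4.3.3) with TMM factors, filterByExpr and the quasi-likelihood test. Differences between days came from a fit of all 18. A gene was called at a Benjamini-Hochberg adjusted p under 0.05 over all genes tested, and the script was tested on simulated data. The SE of a log2 fold change is its size over the root of F. CPM used TMM factors over 18 libraries. Pairs of values in brackets after a log2 fold change are its SE and adjusted p. Exact intervals of count ratios are at 95%.

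The members, the gene lists and the tests were chosen with earlier results of these data known. The genes named were all 10 members, Col2a1, Col9a1, Col11a2 and Matn1, and, per list and comparison of FGF2 or of the knockdown, the called gene with the largest rise and fall at a mean log2 CPM of at least 1. Motifs were searched with Python. Alternatives were DESeq2 1.42.0, factors by RLE or upper quartile, a filter of at least 10 counts in every library or none, other sets of libraries, a replicate block, unstranded counts and leaving out each library. CUT&Tag data of the study were not used here.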

Additional observations from a re-analysis of the deposited data

Results flagged for a closer look

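For 6 of the 10 genes, of which 7 were tested, the FGF2 effect differed between d2.5 and d5 in the fit of all 18 libraries. Over all 14198 genes of that fit, 60.9% were called for such a difference. The difference (d5 minus d2.5, log2 scale) was 1.93 for Sox9, 1.05 for Sox5, 4.43 for Acan, 1.68 for Hapln1, 1.57 for Matn2 and 7.11 for Matn4. For Sox9, Sox5, Acan and Matn4 the effect changed sign. Their Ctrl+vehicle level was lower at d5 than at d2.5 (44.9 against 164 CPM for Sox9, 21.8 against 31.4 for Sox5, 12.5 against 178 for Acan and 4.08 against 8.43 for Matn4). Their Ctrl+FGF2 level was higher at d5 for Sox5 (27.6 against 19.1 CPM), Acan (63.1 against 41.3) and Matn4 (15.1 against 0.210), and overlapped for Sox9. Levels were not tested between days. All 6 calls held in each of the 18 fits that left out 1 library. The Matn4 value rests on 9 counts in d2.5 Ctrl+FGF2, so its size is loose.

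The knockdown effect differed between days for 3 genes, by -0.55 for Sox5, -0.68 for Acan and -0.84 for Hapln1, and these calls also held in all 18 such fits. Day and batch cannot be told apart in any of these differences.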

How the results depend on the processing

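The number of members called stayed within 1.5 times the value given under every alternative run. Of the 603 member fold changes refitted with 1 library left out, 583 kept direction and call, and of 441 under other settings 429 did. The sign of Matn2 with FGF2 at d5, not called, turned with upper-quartile factors (0.024) and with at least 10 counts in every library (0.00097), and ranged from -0.042 to 0.028 with 1 library left out. Other uncalled values that turned sign with 1 library left out were Matn4 with the knockdown at d5 (-0.32 to 0.27), Sox5 with the knockdown against vehicle at d5 (-0.049 to 0.14) and, for Comp, the differences between days of the FGF2 effect (-0.015 to 0.55) and of the knockdown effect (-0.64 to 1.38). The cause was not tested. Calls of Sox5, Acan, Comp and Sox9 near the threshold are given beside their values. Whether replicate numbers pair the libraries was not settled. Deviations of same-numbered libraries correlated between -0.07 and 0.03 at d2.5 and between -0.06 and 0.11 at d5. Those of libraries with different numbers correlated between -0.04 and 0.09 at d2.5 and between -0.12 and 0.05 at d5. With the replicate block, 6 members were called for FGF2 and 4 for the knockdown at d2.5, 6 and 5 at d5, and no call of a member changed. Factors from each day alone moved CPM levels up by 5.03% to 7.24% at d2.5 and by -6.58% to -5.61% at d5. Sox6, Comp at d2.5, Cnmd and Chad did not pass the filter on low counts and are given as counts.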

Other observations

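A pair of genes of chondrocyte hypertrophy, chosen after their values were seen, differed in order across groups. Col10a1, the collagen of hypertrophic cartilage, was at 39.0 ± 2.78 CPM (SD, n = 3) in d2.5 Ctrl+vehicle and at 0.771 ± 0.0918 in Ctrl+FGF2, and at 5.75 ± 0.432 and 7.84 ± 1.56 CPM at d5. Mmp13 was at 54.2 ± 10.3 and 0.394 ± 0.0637 CPM at d2.5 and at 1091 ± 185 and 555 ± 22.5 CPM at d5. In d5 Y/T dKD+FGF2 cells Mmp13 was at 1683 ± 175 CPM, above both other groups.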
